A study of Mus musculus with 3 samples.

Results

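The NF-kB genes described here are 10 genes of 34742 in the table, taken by symbol: the subunits Nfkb1, Nfkb2, Rela and Relb, the feedback genes Nfkbia, Nfkbiz, Tnfaip3 and Birc3, and the adhesion targets Icam1 and Vcam1. RNA-seq was collected from lung mesenchymal stromal cells (LMSCs) grown from MMTV-PyMT mice at 3 stages of mammary tumour growth, with 1 library of total RNA for each. The A-LMSC library was from the adenoma or A stage (7 weeks of age), PM-LMSC from the pre-metastatic or PM stage (11 weeks) and M-LMSC from the metastatic or M stage (13 weeks). All 3 groups carried the same transgene, in which the MMTV promoter drives the polyoma middle T oncogene in the mammary epithelium on the FVB background, and a group without it was not analysed here. Per the study's methods, CD45-positive leukocytes were taken out of the adherent lung cells on magnetic beads before further culture. Since the study counts its libraries as mice, a stage is represented by a single animal here. Stage, age, culture and sequencing library cannot be told apart, no test was possible, and every interval below covers counting error only.

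NF-kB is a family of transcription factors that bind DNA as dimers. Rela, Relb and Rel carry the domain that activates transcription, whereas Nfkb1 and Nfkb2 encode precursors that are processed to the DNA-binding subunits p50 and p52. Resting dimers are held in the cytoplasm by inhibitors such as the Nfkbia product, IkB alpha. In the canonical pathway, a kinase complex activated downstream of TNF, IL-1 and Toll-like receptors marks the inhibitor for degradation. The noncanonical pathway, used by the lymphotoxin beta receptor among others, matures Nfkb2 and releases dimers of Relb. Several target genes feed back on the pathway, and others, such as Icam1 and Vcam1, let stromal and endothelial cells bind leukocytes through integrins.

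Among the feedback genes the promoter of Nfkbia is a textbook NF-kB target, and promoter sequence is shown for 3 members because it is the feature that the targets of this pathway are known to share. RefSeq promoters on the build GRCm38.p6, from 250 bases before to 50 bases after a start site, were at hand for 6 members with 9 start sites, and not for Nfkb1, Relb, Nfkbiz and Vcam1. The motif GGGNNTTTCC, searched on both strands, was found at 5 start sites of 3 members, Nfkb2, Nfkbia and Tnfaip3. It occurred in 1.63% of 32851 promoters. The broader kappaB consensus, which overlaps this motif without containing every form of it, occurred in 4.51% of them and in the same 3 members. Matches to the spelled motif are in capitals. Of the Nfkb2 start sites with a match, the first is printed. The promoters of start sites 2 and 3 of Nfkb2 overlap and share the same match. In Nfkb2 (chr19:46304487-46304786, plus strand) the match lay 11 to 2 bases before the start. In Nfkbia (chr12:55492598-55492897, minus strand) it lay 29 to 20 bases before the start, and in Tnfaip3 (chr10:19015361-19015660, minus strand) 12 to 3 bases before it, both times on the opposite strand of the sequence printed.
Nfkb2: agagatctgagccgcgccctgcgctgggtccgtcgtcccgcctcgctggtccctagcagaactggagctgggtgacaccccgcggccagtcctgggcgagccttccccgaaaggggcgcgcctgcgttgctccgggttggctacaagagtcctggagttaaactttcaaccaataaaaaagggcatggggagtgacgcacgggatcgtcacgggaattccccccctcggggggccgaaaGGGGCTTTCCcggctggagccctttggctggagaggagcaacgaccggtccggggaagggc
Nfkbia: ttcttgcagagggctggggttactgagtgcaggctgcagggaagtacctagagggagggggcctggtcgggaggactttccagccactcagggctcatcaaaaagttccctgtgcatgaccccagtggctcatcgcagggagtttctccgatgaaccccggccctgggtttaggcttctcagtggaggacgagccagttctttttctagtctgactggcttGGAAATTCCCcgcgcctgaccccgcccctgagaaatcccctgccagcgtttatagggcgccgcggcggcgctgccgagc
Tnfaip3: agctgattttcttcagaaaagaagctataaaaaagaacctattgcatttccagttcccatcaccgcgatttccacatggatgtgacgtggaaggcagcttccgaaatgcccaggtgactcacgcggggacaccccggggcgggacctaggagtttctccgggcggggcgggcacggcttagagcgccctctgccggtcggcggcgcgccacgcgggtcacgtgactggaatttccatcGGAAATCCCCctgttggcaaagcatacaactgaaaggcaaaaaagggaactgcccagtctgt
These 3 members did not share a direction. Relative to A-LMSC, Nfkb2 was lower in the later libraries, Nfkbia stayed within 2-fold and Tnfaip3 was higher.

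The libraries held 12594155 to 14338909 counts. Levels are CPM, read counts relative to the library total, scaled by TMM, a factor that corrects for unequal library composition, and log2 ratios were taken after adding 1 CPM. A gene was counted as apart where its higher library reached 1 CPM and the log2 ratio was at least 1, which is 2-fold. Over all genes that reached 1 CPM, the ratio to A-LMSC moved with the GC content of the transcript (Spearman rho -0.62 in PM-LMSC, -0.71 in M-LMSC, across genes, which are not independent replicates). The same rho was -0.38 between M-LMSC and PM-LMSC. For the members and the other named genes, values left after the trend with GC content and length over all genes was subtracted are given too. The cause of the trend was not tested. The cultures expressed all 10 mesenchymal markers at 1 CPM or more in each library. The 10 leukocyte markers summed to 91.8, 317 and 184 CPM at the A, PM and M stages. Ptprc (CD45) had 0, 3 and 9 counts and Cd3e 0 in each, while Lyz2 had 51.7, 244 and 99.0 CPM and Adgre1 and Itgam had 0, 146 and 86 and 0, 48 and 72 counts. The 8 mammary epithelial markers summed to 18.7, 78.2 and 1241 CPM in the same order, and the 8 endothelial markers to 3.44, 18.2 and 6.38 CPM.

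Of the 10 members, all passed the minimum in every library. Between PM-LMSC and A-LMSC, 5 members had at least 2-fold more in PM-LMSC (Nfkb1, Nfkbiz, Tnfaip3, Birc3 and Vcam1), where 35.0% of all genes were higher, and 4 were at least 2-fold lower (Nfkb2, Rela, Relb and Icam1), where 25.0% of all genes were lower. Between M-LMSC and A-LMSC, the same 5 genes were higher in M-LMSC, beside 41.0% of all genes, and 3 were lower (Nfkb2, Rela and Relb), beside 27.7%. By upper-quartile scaling, or centred on the all-gene median, Nfkb1 left and Icam1 joined, for 4 higher and 4 lower. By library totals or FPKM, Relb left the lower members in PM-LMSC and Rela those in M-LMSC. Between M-LMSC and PM-LMSC, only Icam1 was apart. It was higher in M-LMSC, as were 17.3% of all genes, and none of the members was at least 2-fold lower, as were 7.85% of all genes (1 member, Relb, when centred). The median log2 ratio of the members was 0.75, 0.19 and -0.20 in these 3 comparisons, against 0.19, 0.34 and 0.03 over all genes. These medians depended on the setting, with 0.20 in PM-LMSC against A-LMSC once the trend was subtracted, and -0.045 by upper quartile or -0.15 when centred in M-LMSC against A-LMSC. The comparisons with A-LMSC share that library.

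**Figure D1:**
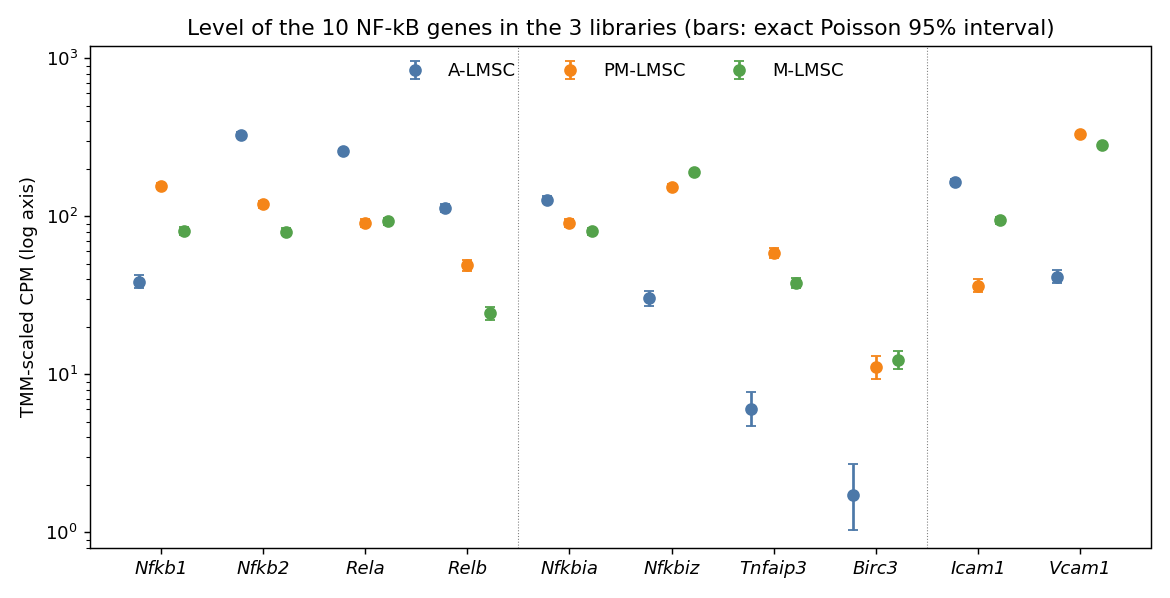
Level of each member in the 3 libraries, as TMM-scaled CPM on a log axis, with the exact Poisson 95% interval of its count; dotted lines separate subunits, feedback genes and adhesion genes. Nfkb1, Nfkbiz, Tnfaip3, Birc3 and Vcam1 lay lowest in A-LMSC, while Nfkb2, Rela, Relb, Nfkbia and Icam1 lay highest there.

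Subtracting the trend changed which members were apart. In PM-LMSC against A-LMSC, 3 were higher (Nfkbiz, Tnfaip3 and Vcam1), beside 18.9% of all genes, and 1 was lower (Icam1), beside 17.0%. In M-LMSC against A-LMSC, 1 was higher (Nfkbiz), beside 19.3% of all genes, and 1 was lower (Nfkb1, which turned direction), beside 18.4%. These shares of the members in M-LMSC lie at or under those of all genes. In M-LMSC against PM-LMSC, 1 was higher (Icam1), beside 11.0% of all genes, and 2 were lower (Nfkb1 and Vcam1), beside 8.69%. Nfkbiz was the member at least 2-fold higher in both later libraries with and without the subtraction, and Icam1 the member higher in M-LMSC than in PM-LMSC both ways.

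**Figure D2:**
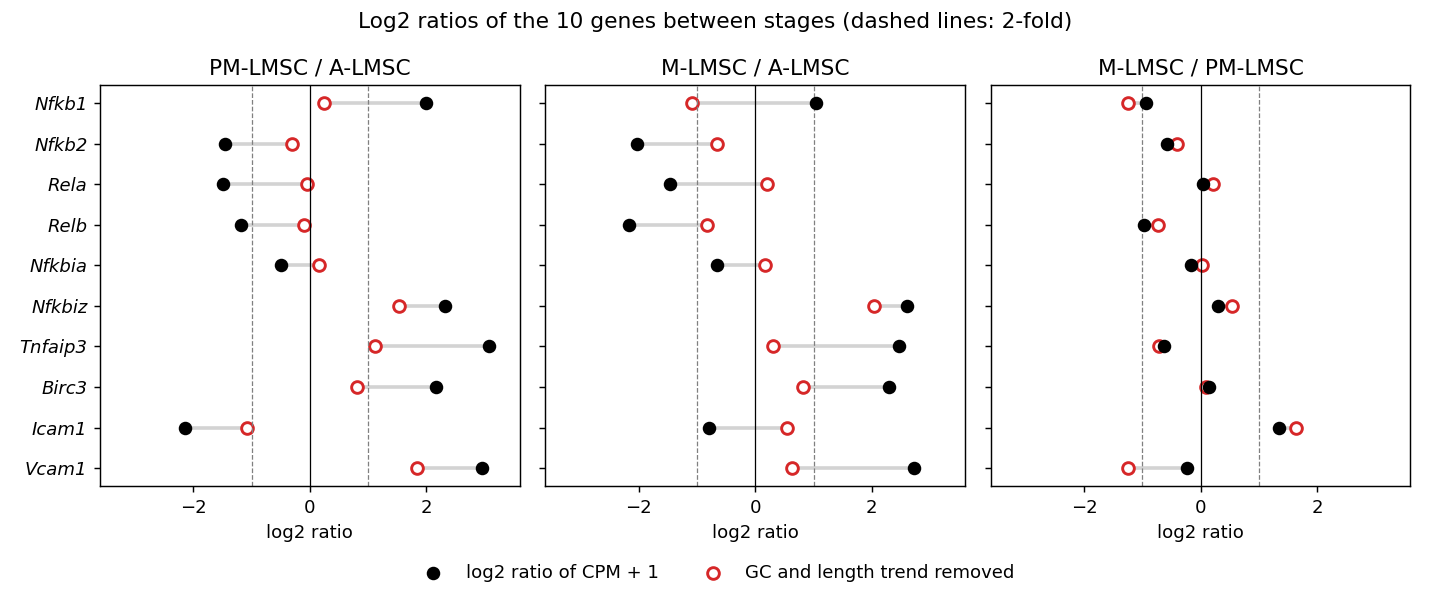
Log2 ratio of each member in the 3 comparisons; filled points are ratios of CPM + 1, open points are the same ratios after the trend with GC content and length was subtracted, and dashed lines mark 2-fold. Subtraction moved most members towards 0 against A-LMSC and moved Icam1 from 1.35 to 1.63 in M-LMSC against PM-LMSC.

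The members themselves span the range of GC content along which the libraries differed. Vcam1 (40.1%), Nfkb1 (44.9%), Birc3 (46.6%) and Tnfaip3 (47.1%) have transcripts of low GC content, and Nfkbiz (50.1%) lies near the all-gene median of 50%. Nfkbia (52.9%), Icam1 (55.4%), Relb (56.8%), Rela (59.4%) and Nfkb2 (59.4%) lie above it. The 5 members of lower GC content are the same 5 genes that were higher in the later libraries. Across the 10 members, the log2 ratio to A-LMSC and GC content gave a Pearson r of -0.90 in PM-LMSC, of -0.88 in M-LMSC and of 0.14 between M-LMSC and PM-LMSC. With the trend subtracted, r was -0.76 in PM-LMSC, -0.25 in M-LMSC and 0.48 for M-LMSC against PM-LMSC. The Spearman rho of the members was -0.77 before and -0.79 after subtraction in PM-LMSC, and -0.84 and -0.33 in M-LMSC. The trend came from all genes, and its subtraction left the members in PM-LMSC still ordered by GC content. These are descriptions over 10 genes that share the same libraries.

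**Figure D3:**
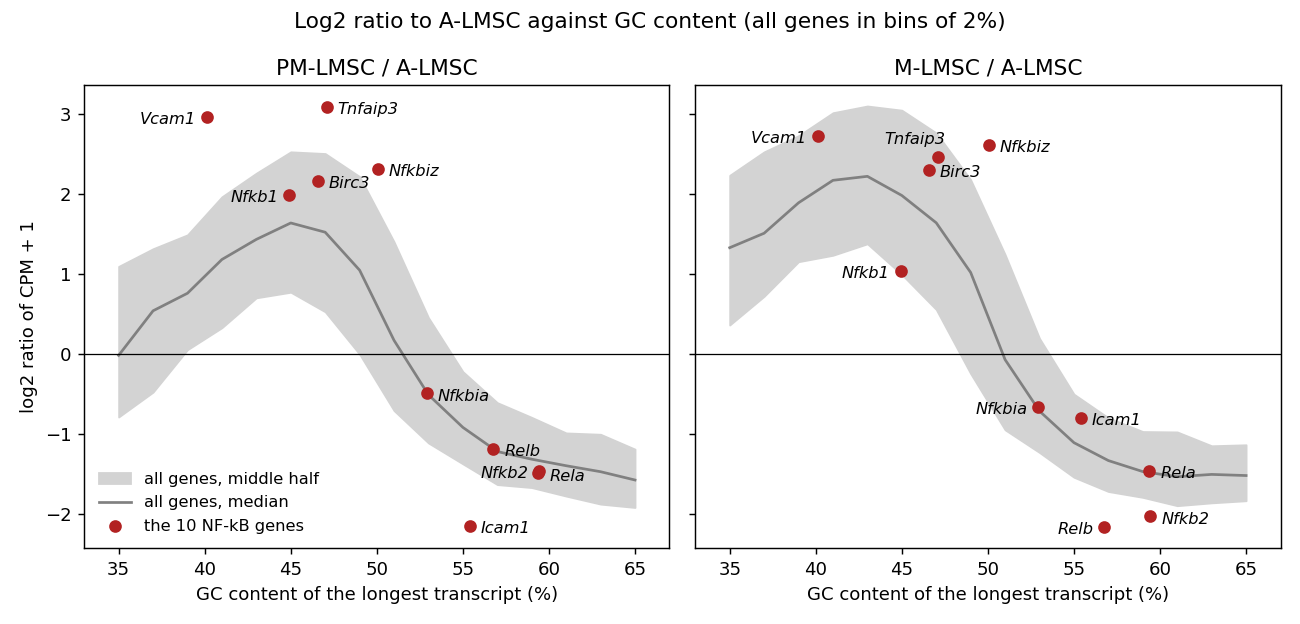
Log2 ratio of CPM + 1 to A-LMSC against the GC content (%) of the longest transcript; the grey line and band are the median and the middle 50% of all genes in bins of 2%, and points are the 10 members. Relb lies on the line in PM-LMSC, and Rela and Nfkb2 lie below the line within the band. Icam1 (-2.15) lies below the band there, and Vcam1 (2.96), Tnfaip3 (3.08) and Nfkbiz (2.31) above it. In M-LMSC, Nfkbiz (2.61) is above the band and Relb (-2.16) and Nfkb2 (-2.03) are below it.

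Among the member subunits, Rela, Relb and Nfkb2 had their highest CPM in A-LMSC, and Nfkb1 had its lowest CPM there. Nfkb1 (chr3:135584655-135691547), which encodes the p105 precursor of p50, had 427 counts in A-LMSC, then 1999 in PM-LMSC and 1392 in M-LMSC, or 38.7, 156 and 80.8 CPM. It was 4.03-fold higher in PM-LMSC than in A-LMSC (95% counting interval 3.63 to 4.49) and 2.09-fold higher in M-LMSC than in A-LMSC (1.87 to 2.33). The log2 ratios were 1.98 and 1.04, and 0.24 and -1.08 with the trend subtracted, so that its direction in M-LMSC turned. M-LMSC lay below PM-LMSC with a log2 ratio of -0.94 (-1.24 with the trend subtracted).

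Nfkb2 (chr19:46304737-46312090), the p100 precursor of p52, had 3638 counts in A-LMSC, then 1530 in PM-LMSC and 1382 in M-LMSC, or 330, 120 and 80.2 CPM. Its level was therefore highest in A-LMSC, with no overlap of the counting intervals between any of the 3 libraries. Compared with A-LMSC it was 2.76-fold lower in PM-LMSC (2.60 to 2.93) and 4.11-fold lower in M-LMSC (3.86 to 4.38), with log2 ratios of -1.46 and -2.03. With the trend subtracted these were -0.30 and -0.66. The end of Nfkb2 overlaps Psd in the table, a gene with 65, 13 and 11 counts at the A, PM and M stages, few beside those of Nfkb2.

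Rela (chr19:5637483-5648130), the p65 subunit that activates most canonical targets, had 2842, 1166 and 1605 counts at the A, PM and M stages, or 258, 91.1 and 93.1 CPM. Here the later libraries had equal levels within counting error, with an M-LMSC to PM-LMSC ratio of 1.02 (0.947 to 1.10, and a log2 ratio of 0.21 with the trend subtracted). Against A-LMSC the log2 ratio of Rela was -1.49 in PM-LMSC and -1.46 in M-LMSC. Values of -0.05 and 0.20 were left with the trend subtracted, in M-LMSC with the opposite sign. Relb (chr7:19606217-19629438), the partner of p52 in the noncanonical pathway, had 1242, 627 and 420 counts in that order of stages, or 113, 49.0 and 24.4 CPM. It differed between each pair of libraries by more than counting error. Its log2 ratio to A-LMSC was -1.18 in PM-LMSC and -2.16 in M-LMSC, and that of M-LMSC to PM-LMSC was -0.98 (-0.10, -0.82 and -0.73 with the trend subtracted).

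Rel, the remaining gene of the family and best known from lymphoid cells, had 1 count in A-LMSC, then 21 in PM-LMSC and 115 in M-LMSC, or 0.0906, 1.64 and 6.67 CPM. Between M-LMSC and PM-LMSC it was 4.07-fold higher (2.54 to 6.82), and the log2 ratio of 1.54 was 0.67 with the trend subtracted. The ratio of PM-LMSC to A-LMSC, 18.1, rests on 1 count and has a counting interval of 2.91 to 748. Log2 ratios of Rel to A-LMSC were 1.28 in PM-LMSC and 2.81 in M-LMSC, and -0.70 and -0.06 with the trend subtracted.

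Within a library, the subunits can be compared per transcript length, which the deposited FPKM do. The lengths behind these values are long for some members: 16229 bases for Nfkb1, against 4149 in its longest GENCODE M21 transcript, but 3384 against 3846 for Nfkb2. Comparisons between genes are therefore given on both lengths. In FPKM, Nfkb2 exceeded Nfkb1 40.9-fold in A-LMSC, 3.67-fold in PM-LMSC and 4.76-fold in M-LMSC. On the length of the longest transcript the Nfkb2 to Nfkb1 ratio was 9.19, 0.826 and 1.07. On either length Nfkb1 took its smallest share of the summed level of the 5 family transcripts in A-LMSC, 1.11% in FPKM and 4.16% by the longest transcript. Its share was 11.0% and 32.0% in PM-LMSC, and 7.29% and 23.5% in M-LMSC. Rela held 44.1%, 38.3% and 50.2% of the summed FPKM at the A, PM and M stages. By the longest transcript its share was 42.3%, 28.6% and 41.3%, so which library had the largest share depended on the length. Rel held 1.31% or less in each library.

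**Figure D4:**
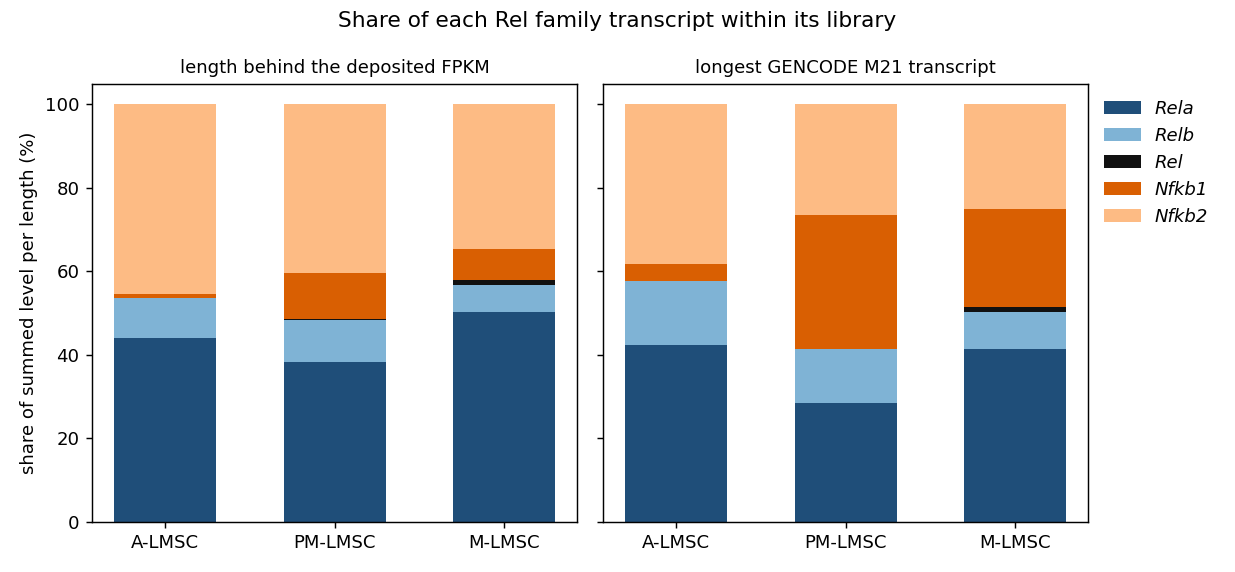
Share (%) of each of the 5 Rel family transcripts in their summed level per length, for each library, with the length behind the deposited FPKM on the left and that of the longest GENCODE M21 transcript on the right. Nfkb1 is a thin band in A-LMSC (1.11% and 4.16%) and its widest in PM-LMSC (11.0% and 32.0%).

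Of the 4 feedback genes, 3 were at least 2-fold higher in both later libraries than in A-LMSC, and Nfkbia was not. Nfkbia (chr12:55489411-55492647), the inhibitor IkB alpha that NF-kB itself induces, had 1411, 1161 and 1391 counts at the A, PM and M stages, or 128, 90.7 and 80.7 CPM. It stayed within 2-fold in all 3 comparisons, 1.41-fold lower in PM-LMSC (1.30 to 1.53) and 1.58-fold lower in M-LMSC (1.47 to 1.71) than in A-LMSC. With the trend subtracted its log2 ratios were 0.16 and 0.17, against -0.49 and -0.66 before. It stayed among the most abundant members per length, with 66.4, 58.4 and 61.5 FPKM at the A, PM and M stages.

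Nfkbiz (chr16:55811375-55838899) encodes IkB zeta, a nuclear protein of the inhibitor family that binds p50 and enables transcription of a subset of secondary targets. It had 334 counts in A-LMSC, then 1977 in PM-LMSC and 3273 in M-LMSC, or 30.3, 154 and 190 CPM. Each later library lay above the one before it, beyond counting error. Nfkbiz was 5.10-fold higher in PM-LMSC (4.54 to 5.75) and 6.27-fold higher in M-LMSC (5.60 to 7.04) than in A-LMSC. The log2 ratios of 2.31 and 2.61 were 1.52 and 2.04 with the trend subtracted, and over the 10 alternative settings they ranged between 1.52 and 2.62 in PM-LMSC and between 2.04 and 3.15 in M-LMSC. In FPKM, Nfkbia exceeded Nfkbiz 19.2-fold in A-LMSC, 2.67-fold in PM-LMSC and 1.93-fold in M-LMSC. By the longest transcript, Nfkbia had 66.3, 58.4 and 61.5 CPM per kb at the A, PM and M stages. Nfkbiz had 6.02, 38.1 and 55.5 CPM per kb, so the levels in M-LMSC were close on that length.

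Tnfaip3 (chr10:19000910-19015657) encodes A20, a ubiquitin-editing enzyme that shuts down signalling from TNF and Toll-like receptors. Its counts were 67 in A-LMSC, then 753 in PM-LMSC and 653 in M-LMSC, or 6.07, 58.8 and 37.9 CPM. Both later libraries lay far above A-LMSC, and M-LMSC lay below PM-LMSC (ratio 0.644, 0.579 to 0.716, and a log2 ratio of -0.72 with the trend subtracted). It was 9.69-fold higher in PM-LMSC (7.54 to 12.6) and 6.24-fold higher in M-LMSC (4.85 to 8.15) than in A-LMSC. The log2 ratio of 3.08 in PM-LMSC was 1.11 with the trend subtracted. In M-LMSC a log2 ratio of 2.46 was reduced to 0.30.

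Birc3 (chr9:7848699-7873186) encodes cIAP2, a ubiquitin ligase of the TNF receptor complex that also limits the noncanonical kinase NIK. It was the least abundant member per length in each library, with 19, 143 and 213 counts at the A, PM and M stages, or 1.72, 11.2 and 12.4 CPM. The later libraries did not differ beyond counting error in TMM-scaled CPM (ratio 1.11, 0.891 to 1.38). Their log2 ratio was 0.36 by library totals, 0.25 by FPKM and 0.08 with the trend subtracted. Birc3 was 6.49-fold higher in PM-LMSC (4.01 to 11.1) and 7.18-fold higher in M-LMSC (4.48 to 12.2) than in A-LMSC. Its log2 ratios of 2.16 and 2.29 became 0.80 and 0.81, under 2-fold, with the trend subtracted.

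The adhesion targets changed order between stages. Icam1 (chr9:21015960-21028797), the ligand of the leukocyte integrins LFA-1 and Mac-1, had 1820 counts in A-LMSC, then 467 in PM-LMSC and 1631 in M-LMSC, or 165, 36.5 and 94.6 CPM. PM-LMSC was thus the lowest of the 3 libraries, without overlap of the counting intervals. Icam1 was 4.52-fold lower in PM-LMSC than in A-LMSC (4.08 to 5.02) and 2.59-fold higher in M-LMSC than in PM-LMSC (2.34 to 2.88). These log2 ratios of -2.15 and 1.35 were -1.07 and 1.63 with the trend subtracted, so both stayed past 2-fold. Against A-LMSC, M-LMSC had a log2 ratio of -0.80, and 0.55 with the trend subtracted. The mammary epithelial markers were likewise higher in M-LMSC (1241 CPM summed, all 8 at least 2-fold higher) than in PM-LMSC (78.2 CPM). The 8 lung epithelial markers summed to 113, 1.87 and 10.3 CPM at the A, PM and M stages. Among them Sftpc had 969, 0 and 29 counts, while Foxj1 had 1, 3 and 95. The part of either marker set in the Icam1 differences was not tested. In bulk RNA of this kind, fewer cells of a type and less RNA per cell cannot be told apart.

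Vcam1 (chr3:116109949-116129688), the ligand of the integrin VLA-4, had 459 counts in A-LMSC, then 4228 in PM-LMSC and 4846 in M-LMSC, or 41.6, 330 and 281 CPM. Both later libraries lay above A-LMSC. The order of M-LMSC and PM-LMSC depended on the scaling, with a log2 ratio of -0.23 in TMM-scaled CPM, 0.0094 in FPKM and -1.24 with the trend subtracted. Vcam1 was 7.94-fold higher in PM-LMSC (7.21 to 8.76) and 6.76-fold higher in M-LMSC (6.14 to 7.45) than in A-LMSC. With the trend subtracted, the log2 ratio of 2.96 in PM-LMSC became 1.84 and that of 2.73 in M-LMSC became 0.64. The 8 markers of endothelial cells, in which inflammation induces Vcam1, summed to 18.2 CPM in PM-LMSC, 6.38 CPM in M-LMSC and 3.44 CPM in A-LMSC. Kdr had 116, 56 and 8 counts and Cdh5 61, 12 and 7 counts in that order, and Emcn had 0 in each. The 10 leukocyte markers summed to 317, 184 and 91.8 CPM in the same order, with 146, 86 and 0 counts of the macrophage marker Adgre1. Their part in Vcam1 was not tested.

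Per length, the level of Icam1 exceeded that of Vcam1 in A-LMSC on both lengths, 15.1-fold in FPKM and 6.39-fold by the longest transcript. In PM-LMSC the order was the reverse on both, with Icam1 to Vcam1 ratios of 0.420 and 0.178. In M-LMSC the order depended on the length used, with ratios of 1.28 and 0.543. In FPKM the members ranked Nfkb2, Rela, Nfkbia and Icam1 in A-LMSC (79.7, 77.6, 66.4 and 53.1), with Birc3 last at 0.205. In PM-LMSC the 4 highest were Nfkbia, Nfkb2, Vcam1 and Rela (58.4, 35.9, 34.8 and 34.1 FPKM), of which the last 3 are close. In M-LMSC they were Nfkbia, Icam1, Rela and Vcam1 (61.5, 44.8, 41.2 and 35.0 FPKM). By the longest transcript, Rela led in A-LMSC (77.6 CPM per kb) and Vcam1 in PM-LMSC and M-LMSC (82.1 and 82.7 CPM per kb).

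A few genes had a pattern very close to that of a member, measured as the distance between their log2 ratios to A-LMSC in the 2 later libraries, over 3 libraries in all. Among 2707 genes whose highest CPM lay within 2-fold of that of Icam1, Pdlim2, a ubiquitin ligase that ends Rela activity in the nucleus, was nearest to Icam1 (distance 0.034). Pdlim2 had 138, 31.2 and 79.5 CPM at the A, PM and M stages. Zfp385a (0.044) and Hyal2 (0.12) followed, and all 3 have GC contents of 55.2% to 62.6%. Nearest to Vcam1 were Morf4l2 (0.050), Stt3b (0.10) and Pdha1 (0.11) of 1531 genes, and those to Tnfaip3 included Usp12 (0.029) and Atxn1l (0.066) of 4125 genes.

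Other parts of the pathway were read from lists. Of 15 IkB proteins, IKK subunits and Rel, 6 were at least 2-fold higher and 5 lower among 14 measured in PM-LMSC against A-LMSC. The shares over all genes were 35.0% higher and 25.0% lower. In M-LMSC against A-LMSC, 7 were higher and 6 lower among 15, beside 41.0% and 27.7% of all genes. Those higher in both included kinases of the pathway and an adaptor. Tbk1, an IKK-related kinase, had 1.09, 33.3 and 40.3 CPM at the A, PM and M stages. Map3k7 (TAK1, which activates the IKK complex) had 6.25, 87.3 and 134 CPM, Chuk (IKK alpha) 3.90, 28.5 and 72.8 CPM, and Tab2 (an adaptor of TAK1) 3.08, 15.6 and 71.0 CPM. Tbk1, Map3k7 and Chuk kept log2 ratios of 1.42 to 2.59 in both comparisons with the trend subtracted, and Tab2 kept 2.79 in M-LMSC and 0.62 in PM-LMSC. Ikbkb (IKK beta) had 21.8, 54.1 and 46.0 CPM in the same order of stages, and its log2 ratios of 1.27 and 1.05 were 0.76 and 0.75 with the trend subtracted. Ikbkg (NEMO, the regulatory subunit) had 38.7, 29.5 and 46.6 CPM, with log2 ratios of -0.38 and 0.26 that were -2.54 and -2.46 with the trend subtracted.

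Those lower in both included 3 IkB proteins. Bcl3, a nuclear IkB protein that binds p50 and p52, had 155, 14.2 and 29.8 CPM at the A, PM and M stages. Nfkbib (IkB beta) had 80.6, 26.8 and 30.5 CPM and Nfkbie (IkB epsilon) 23.1, 10.6 and 6.50 CPM. Tab1, another TAK1 adaptor, had 59.5, 19.0 and 17.2 CPM. With the trend subtracted Bcl3 kept -1.58 in PM-LMSC and had -0.53 in M-LMSC, and the other 3 genes lay between -0.44 and 0.30. Between M-LMSC and PM-LMSC, 6 of the 15 genes were higher in M-LMSC and none was lower (3 and 0 with the trend subtracted). Over all genes 17.3% were higher and 7.85% lower (11.0% and 8.69% with the trend subtracted). With the trend subtracted, 3 were higher and 3 lower in PM-LMSC against A-LMSC, beside 18.9% and 17.0% of all genes. In M-LMSC against A-LMSC 4 were then higher and 2 lower, beside 19.3% and 18.4%.

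Of 23 receptors and adaptors, 7 were higher and 6 lower among 22 measured in PM-LMSC against A-LMSC, beside 35.0% and 25.0% of all genes. In M-LMSC against A-LMSC, 9 were higher and 8 lower, beside 41.0% and 27.7%. The TNF receptor Tnfrsf1a (563, 154 and 133 CPM at the A, PM and M stages) and the lymphotoxin receptor Ltbr (508, 149 and 159 CPM) were lower in both later libraries. So were the adaptors Traf2 (98.2, 34.6 and 31.0 CPM) and Tradd (63.4, 17.0 and 23.3 CPM). With the trend subtracted only Traf2 of these 4 stayed past 2-fold, at -1.88 in PM-LMSC and -1.77 in M-LMSC. The IL-1 receptor Il1r1 (5.44, 119 and 40.9 CPM), Toll-like receptor Tlr2 (2.36, 25.5 and 23.5 CPM), the kinase Ripk1 (2.36, 41.2 and 29.0 CPM) and the ligase Traf6 (1.54, 10.5 and 20.4 CPM) were higher. Tlr2 kept 2.22 in PM-LMSC and 2.29 in M-LMSC with the trend subtracted, while Il1r1 had 2.24 and 0.10, Ripk1 1.52 and 0.56 and Traf6 0.09 and 0.63. The list then held 5 higher and 3 lower in PM-LMSC, beside 18.9% and 17.0% of all genes. In M-LMSC it held 6 higher and 4 lower, beside 19.3% and 18.4%.

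Among 10 activating ligands, 4 reached the minimum in PM-LMSC or A-LMSC, and 5 in M-LMSC or A-LMSC. Il1a, which signals through Il1r1, had 0 counts in A-LMSC, then 102 in PM-LMSC and 682 in M-LMSC. Set against 3 counts in A-LMSC, it was higher by at least 29.3-fold in PM-LMSC and by at least 146-fold in M-LMSC. These limits concern counting error only. The log2 ratios of Il1a, 3.16 and 5.34, were 2.33 and 3.57 with the trend subtracted. Tnf was near the floor, with 16, 12 and 34 counts at the A, PM and M stages, and Il1b had 0, 12 and 15. Tnfsf12 (TWEAK) was lower, with 74.9, 13.5 and 18.4 CPM, and so was Tnfsf13b (BAFF), with 9.34, 3.98 and 3.95 CPM. Tnfsf12, with the trend subtracted, had log2 ratios of -0.87 in PM-LMSC and -0.35 in M-LMSC and Tnfsf13b of -2.74 and -3.48.

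Of 15 other brakes, 4 were higher and 7 lower among 14 measured in PM-LMSC against A-LMSC, beside 35.0% and 25.0% of all genes. In M-LMSC against A-LMSC, 7 were higher and 7 lower, beside 41.0% and 27.7%. Cyld, a deubiquitinase that opposes IKK activation, had 4 counts in A-LMSC, then 241 in PM-LMSC and 831 in M-LMSC. Otud7b, a deubiquitinase of the noncanonical pathway, had 19.8, 89.4 and 77.5 CPM, and the A20 cofactors Rnf11 and Itch had 13.1, 46.2 and 143 CPM and 2.81, 7.11 and 41.5 CPM. On the lower side, the A20-binding protein Tnip1 had 233, 64.3 and 54.9 CPM and the ribonuclease Zc3h12a 368, 109 and 104 CPM. Trib3, a pseudokinase, had 88.6, 7.97 and 16.0 CPM, and Usp18, best known as a brake on interferon signalling, 377, 103 and 133 CPM. The brakes with the trend subtracted were 1 higher and 3 lower in PM-LMSC, beside 18.9% and 17.0% of all genes. In M-LMSC they were 3 higher and 2 lower, beside 19.3% and 18.4%. Cyld then had 1.75 in PM-LMSC and 2.28 in M-LMSC, Rnf11 0.23 and 1.11, Otud7b 0.35 and 0.04, and Itch -0.58 and 0.95. Usp18 had -1.84 and -1.31, Trib3 -1.85 and -0.75, Tnip1 -0.57 and -0.55, and Zc3h12a -0.50 and -0.30. Between M-LMSC and PM-LMSC, 7 of the 15 brakes were higher in M-LMSC, beside 17.3% of all genes, and none was lower, beside 7.85%. Among the 15 brakes 5 were higher with the trend subtracted, beside 11.0% of all genes, and none was lower, beside 8.69%. In the assembly of linear ubiquitin chains, on which the IKK complex is activated, the 3 subunits of the ligase were lower. Rnf31 had 85.8, 27.9 and 24.1 CPM, Rbck1 254, 67.3 and 86.1 CPM and Sharpin 62.4, 26.8 and 23.1 CPM, and with the trend subtracted Rnf31 had -2.05 and -2.04, Rbck1 -0.35 and 0.18 and Sharpin -0.05 and -0.06 in PM-LMSC and M-LMSC.

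Of 33 other target genes, 6 were higher and 10 lower among 30 measured in PM-LMSC against A-LMSC, beside 35.0% and 25.0% of all genes. In M-LMSC against A-LMSC, 15 were higher and 10 lower among 31, beside 41.0% and 27.7%. Between M-LMSC and PM-LMSC, 13 were higher and 6 lower, beside 17.3% and 7.85%. With the trend subtracted, 8 were higher and 12 lower in PM-LMSC against A-LMSC, beside 18.9% and 17.0% of all genes. For M-LMSC against A-LMSC these counts were 7 and 7, beside 19.3% and 18.4%. For M-LMSC against PM-LMSC they were 11 and 6, beside 11.0% and 8.69%. Nos2, inducible nitric oxide synthase, had 607, 34.1 and 56.3 CPM at the A, PM and M stages. Cebpd, a transcription factor of the acute phase, had 872, 97.1 and 219 CPM, Ier2, an immediate early gene, 369, 60.2 and 92.9 CPM, and Saa3, a serum amyloid protein, 8464, 2416 and 797 CPM. Nos2, Cebpd and Saa3 stayed past 2-fold lower in both later libraries with the trend subtracted, and Ier2 did not. Cflar, an inhibitor of caspase 8, had 6.98, 159 and 131 CPM, and the prostaglandin synthase Ptgs2 had 21.6, 116 and 611 CPM. The kinase Ripk2 had 6.98, 38.7 and 35.3 CPM, and the urokinase gene Plau 27.7, 322 and 81.3 CPM. Cflar, Ptgs2 and Ripk2 stayed past 2-fold higher in both later libraries with the trend subtracted, and Plau did so in PM-LMSC alone.

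Of 16 other adhesion genes, 4 were higher and 2 lower among 12 measured in PM-LMSC against A-LMSC, beside 35.0% and 25.0% of all genes. In M-LMSC against A-LMSC, 5 were higher and 3 lower, beside 41.0% and 27.7%. Alcam (3.44, 37.7 and 61.5 CPM at the A, PM and M stages), Cd44, the hyaluronan receptor (55.1, 303 and 262 CPM), and Ncam1 (17.8, 164 and 46.1 CPM) were higher in both. Cadm1 had 0, 41 and 275 counts. The proteoglycan gene Sdc1 (801, 332 and 269 CPM) and Icam5 (6.25, 1.56 and 1.39 CPM) were lower. In either later library, 2 were higher and 2 lower with the trend subtracted. The shares of all genes were then 18.9% and 17.0% in PM-LMSC, and 19.3% and 18.4% in M-LMSC. Alcam then had 1.11 in PM-LMSC and 1.17 in M-LMSC, Cadm1 0.28 and 1.71, Ncam1 1.87 and 0.14 and Cd44 0.46 and -0.29, while Sdc1 had -0.36 and -0.40 and Icam5 0.10 and 0.12. Of the integrin genes that pair with Icam1 and Vcam1 ligands, Itgb1, the beta chain of VLA-4, had 42.6, 1846 and 2074 CPM at the A, PM and M stages. It had log2 ratios of 3.74 and 3.53 with the trend subtracted. Its alpha partner Itga4 had 3, 20 and 45 counts, with log2 ratios of 1.01 and 1.51 that turned to -0.77 and -1.43 with the trend subtracted, and the leukocyte chains Itgb2 and Itgam had 16.6, 16.2 and 8.59 CPM and 0, 3.75 and 4.18 CPM.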

How the data were processed

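For each of the 3 libraries, the authors deposited whole-number counts per gene, not normalized, and FPKM, which they had divided by a gene length and by the total of the library. TopHat2 2.0.9 and mm10 are named in the submitters' processing notes. The program that counted reads, its annotation and its strand setting were not given in the sources used here, so reads of overlapping genes cannot be assigned with certainty. Of 34748 lines, 6 incomplete ones were left out. Libraries held 13479898 (A-LMSC), 12594155 (PM-LMSC) and 14338909 (M-LMSC) counts, and 3 counts corresponded to 0.272, 0.234 and 0.174 CPM.

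CPM were computed from the deposited counts with TMM factors of 0.818, 1.02 and 1.20 (edgeR 4.0.16, R 4.3.3). Ratios are log2 of CPM + 1, on a scale that understates changes of low genes. Fold values, their exact conditional binomial 95% intervals and the exact Poisson 95% intervals of levels use CPM without the pseudocount and cover counting error only, since reads without molecular identifiers are not independent molecules. For a gene at 0, a fold was also given with 3 counts put in place of 0, which is not a lower limit. A lowess curve (span 0.3) over all measured genes was fitted to the ratio by GC content, then by length, of the longest GENCODE M21 transcript, and subtracted. Python 3.11.15 was used with scipy 1.17.1, statsmodels 0.14.6, pandas 2.3.3, matplotlib 3.10.9 and numpy 2.4.6. Alternatives were library totals, median-of-ratios factors (DESeq2 1.42.0), upper quartile, FPKM, pseudocounts of 0.1 and 5, no minimum, a minimum of 5 CPM, centring on the all-gene median and the subtracted trend. TMM scaling, the 2-fold calls and the ratio intervals were tested on simulated counts with changes in a small part of the genes and no trend with GC content. The subtraction of the trend and the alternative scalings were not tested in that way.

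The members and the 13 other lists were chosen with earlier results of these data known. All members are named. Of other pathway lists, up to 4 genes per direction were named, by the smaller of the shifts counted alike in PM-LMSC and M-LMSC, together with Rel, Ikbkb, Chuk, Ikbkg, Tnf, Il1a, Il1b, Itga4 and Itgb1 and the 3 genes nearest to Icam1, Vcam1 and Tnfaip3. Of these, 1 gene is not reported here. Markers and Itgb2 were named after their values were seen. Summed over their markers, lung epithelial genes had 113, 1.87 and 10.3 CPM and mesenchymal genes 35315, 20723 and 7669 CPM at the A, PM and M stages.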

Additional observations from a re-analysis of the deposited data

How the results depend on the processing

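With 1 library per stage no library could be left out of a group, so that no value has a replicate check. No paired analysis was possible because each stage had 1 library. Of 300 member values over 10 settings, 274 kept their side of 2-fold, 19 fell under it, 6 passed it and 1 turned. No minimum and a minimum of 5 CPM each kept 30 of 30 values. They could not change a call, because the higher library of every member exceeded 5 CPM in each comparison. Subtracting the trend with GC content and length accounted for 11 of the losses, 2 of the gains and the turned value. Under it, Nfkb1 had a log2 ratio of -1.08 and Rela of 0.20 in M-LMSC against A-LMSC, opposite to their main values of 1.04 and -1.46. Under it the members apart numbered 4 for PM-LMSC against A-LMSC, 2 for M-LMSC against A-LMSC and 3 for M-LMSC against PM-LMSC, beside 9, 8 and 1 in the main values. Of all genes, 18.9% were then higher and 17.0% lower for PM-LMSC against A-LMSC, 19.3% and 18.4% for M-LMSC against A-LMSC, and 11.0% and 8.69% for M-LMSC against PM-LMSC. The members apart for M-LMSC against PM-LMSC numbered 2 with a pseudocount of 0.1 and 2 when centred on the all-gene median. Relb joined Icam1 in both.

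Scaling decided several members near 2-fold. Relb in PM-LMSC against A-LMSC was -0.87 by library totals and -0.82 by FPKM, and Rela in M-LMSC against A-LMSC was -0.91 and -0.90. Nfkb1 in M-LMSC against A-LMSC was 0.85 by median of ratios, 0.81 by upper quartile, 0.97 with a pseudocount of 5 and 0.70 when centred. Icam1 in M-LMSC against A-LMSC was -1.03 by upper quartile and -1.13 when centred. The median of the members for PM-LMSC against A-LMSC was 1.05 by library totals, 0.57 by median of ratios, 0.52 by upper quartile, 0.48 by FPKM, 0.40 with a pseudocount of 5, 0.55 when centred and 0.20 with the trend subtracted. For M-LMSC against A-LMSC this median was 0.74, 0.0015, -0.045 and 0.57 by the first 4 settings and -0.15 when centred. For M-LMSC against PM-LMSC it was 0.041 both by library totals and by FPKM, against -0.20. Over all genes the median log2 ratio was -0.04, 0.10 and 0.02 by upper quartile in these 3 comparisons. Birc3 and Tnfaip3 in A-LMSC rest on 19 and 67 counts, which limits their ratios.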
